A study of Mus musculus with 16 samples.

Results

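A set of 9 genes that mark the layers and projection classes of cortical neurons was followed through the medial prefrontal cortex (mPFC) of 16 mice. The genes were Fezf2, Bcl11b, Tbr1, Cux1, Cux2, Rorb, Foxp2, Tle4 and Crym, taken by symbol from a table of 26625 genes, and all 9 passed the filter on low counts that left 18826 genes for testing. The mice were male C57BL/6 animals, 8 to 10 weeks old. Each had received in the mPFC an adeno-associated virus that carried EGFP and either a non-targeting hairpin (Ctrl; shNC in the labels, which give the genotype as WT) or a hairpin against Kdm7a (Kdm7a-shRNA; shKDM7A in the labels). Each was then conditioned with saline or with morphine at 10 mg/kg and was sampled on day 7 of withdrawal. The 4 groups held 3 mice (Ctrl + Saline), 4 mice (Ctrl + Morphine), 5 mice (Kdm7a-shRNA + Saline) and 4 mice (Kdm7a-shRNA + Morphine). The hairpin was driven by the U6 promoter, which is not restricted to 1 cell type, and the RNA came from whole mPFC tissue.

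The cerebral cortex is built in layers whose excitatory neurons send axons to different targets. Fezf2 and Bcl11b (also called CTIP2) are transcription factors of the layer 5 neurons that project out of the cortex, and Crym, a thyroid hormone-binding protein, is enriched in deep-layer projection neurons. Tbr1, Foxp2 and Tle4 mark the layer 6 neurons that project to the thalamus. Cux1 and Cux2 are homeobox factors of the upper layers, and Rorb is a nuclear receptor of layer 4 and of neighbouring neurons. In the adult these genes are used as labels of neuron classes, and their levels in bulk tissue depend both on the number of such neurons and on the RNA in each. Fewer cells of a type and less RNA per cell cannot be told apart here.

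Of the 9 genes, Crym was lower and Cux1 was higher after Kdm7a-shRNA, and Bcl11b was lower once saline and morphine mice were averaged. The other 6 passed no comparison. No gene of the 9 passed the test for an effect of morphine under either virus. The threshold for passing was a Benjamini-Hochberg adjusted p under 0.05 over all tested genes together with a change of 1.5-fold or more, in edgeR's quasi-likelihood test on the counts. Levels are given as normalized CPM, that is CPM recomputed from the counts after edgeR's TMM scaling. They were not corrected for gene length and are compared between mice only.

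The libraries held 6596991 to 12418112 counted reads. Kdm7a itself had 35 to 93 counts per mouse. Its level was 9.78, 9.08 and 9.41 CPM in Ctrl + Saline mice and 7.79, 6.19, 8.89 and 8.02 CPM in Ctrl + Morphine mice. It was 5.74, 4.95, 6.04, 6.07 and 4.92 CPM in Kdm7a-shRNA + Saline mice and 6.28, 4.44, 3.01 and 6.04 CPM in Kdm7a-shRNA + Morphine mice. Thus 8 of the 9 hairpin mice lay below all 7 Ctrl mice. Averaged over treatments the log2 fold change of Kdm7a was -0.71 ± 0.15 (SE; adjusted p = 0.00154).

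Crym, on chr7:120186380-120202111 (minus strand, GRCm38), showed the largest change of the 9 genes. Its level was 127, 100.2 and 116 CPM in Ctrl + Saline mice and 112, 117, 123 and 153 CPM in Ctrl + Morphine mice. In Kdm7a-shRNA + Saline mice it was 49.9, 31.9, 22.8, 72.2 and 36.9 CPM, and in Kdm7a-shRNA + Morphine mice 42.8, 58.0, 28.1 and 81.2 CPM. All 9 hairpin mice lay below all 7 Ctrl mice, a separation in either direction that 4.37% of the tested genes showed. The group means were 115 ± 13.6 (SD, n = 3), 126 ± 18.5 (SD, n = 4), 42.7 ± 19.2 (SD, n = 5) and 52.5 ± 22.7 CPM (SD, n = 4) in the same order. Crym fell under saline by 1.42 on the log2 scale (SE 0.302, adjusted p = 0.00434) and under morphine by 1.27 (SE 0.303, adjusted p = 0.0164). The result under morphine missed the threshold when either of 2 mice was left out. Its adjusted p was 0.0528 without Kdm7a-shRNA + Morphine replicate 3 and 0.0577 without Ctrl + Morphine replicate 4, with log2 fold changes of -1.06 and -1.17. Over all tested genes 568 and 578 passed in these 2 fits, beside 1448 with all mice. Averaged over treatments Crym fell by 1.35 (SE 0.214, adjusted p = 2.50e-04), and this held with each of the 16 mice left out in turn.

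Bcl11b lies on chr12:107910403-108003602 (minus strand) and was covered by 41 to 143 counts per mouse. Its level was 10.7, 12.9 and 8.08 CPM in Ctrl + Saline mice and 13.1, 15.3, 11.1 and 13.1 CPM in Ctrl + Morphine mice. It was 5.17, 5.99, 4.86, 9.79 and 8.84 CPM in Kdm7a-shRNA + Saline mice and 8.12, 9.59, 7.39 and 9.66 CPM in Kdm7a-shRNA + Morphine mice. The 2 morphine groups did not overlap, a separation seen in 13.9% of the tested genes, whereas the 2 saline groups did. The log2 fold change was -0.61 ± 0.23 under saline (SE; adjusted p = 0.0647) and -0.60 ± 0.22 under morphine (SE; adjusted p = 0.0911), and neither passed. The value under saline lay near the threshold. It passed by library size alone (-0.73, adjusted p = 0.0317), in DESeq2 (-0.61, adjusted p = 0.0492) and with a replicate block (-0.81, adjusted p = 0.0124), and the adjusted p ran up to 0.116 over the 8 alternatives. It also passed without Kdm7a-shRNA + Saline replicate 4 (-0.76, adjusted p = 0.0190) and without replicate 5 of that group (-0.71, adjusted p = 0.0472). Averaged over treatments Bcl11b fell by 0.60 (SE 0.157, adjusted p = 0.00829). This value lay close to the limit of 1.5-fold, which is 0.58 on the log2 scale. With 1 mouse left out at a time the fold change stayed past that limit in 10 of 16 fits. The adjusted p remained between 0.00246 and 0.0347, and the log2 fold change between -0.69 and -0.51. The 6 mice whose removal ended the call were Ctrl + Saline replicate 2 (-0.51), Ctrl + Morphine replicate 2 (-0.56), Kdm7a-shRNA + Morphine replicate 3 (-0.56), and Kdm7a-shRNA + Saline replicates 1 (-0.56), 2 (-0.58) and 3 (-0.55).

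Fezf2, which acts upstream of Bcl11b in the specification of layer 5 projection neurons, differed most between Ctrl mice given morphine or saline. Its level was 24.98, 19.1 and 16.96 CPM in Ctrl + Saline mice and 32.2, 37.1, 31.2 and 38.3 CPM in Ctrl + Morphine mice. It was 16.7, 18.4, 10.8, 33.4 and 17.1 CPM in Kdm7a-shRNA + Saline mice and 13.5, 27.2, 15.1 and 25.5 CPM in Kdm7a-shRNA + Morphine mice. The Ctrl + Morphine mice lay above all Ctrl + Saline and all Kdm7a-shRNA + Morphine mice. Of the tested genes 12.4% separated the 2 Ctrl groups and 13.9% the 2 morphine groups in the same complete way, in either direction. The log2 fold change was 0.77 ± 0.30 for morphine under the control virus (SE; adjusted p = 0.309) and -0.77 ± 0.27 for Kdm7a-shRNA under morphine (SE; adjusted p = 0.0829), and neither passed. These 2 comparisons share the Ctrl + Morphine mice. Under saline the hairpin changed Fezf2 by -0.08 (95% interval -0.68 to 0.52), and morphine under the hairpin by 0.08 (-0.48 to 0.63). The test of whether the effect of morphine differed between the viruses gave -0.70 ± 0.40 on the log2 scale (SE; adjusted p = 0.568). Without Kdm7a-shRNA + Saline replicate 4, the mouse at 33.4 CPM, Fezf2 passed under morphine (-0.77, SE 0.218, adjusted p = 0.0332).

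Cux1, on chr5:136248135-136567490 (minus strand), moved in the opposite direction to Crym and Bcl11b. The gene encodes the CUX1 homeobox factor and, by alternative splicing, a Golgi protein called CASP, which these gene-level counts do not separate. Its level was 25.4, 24.6 and 21.6 CPM in Ctrl + Saline mice and 24.5, 25.8, 31.5 and 22.7 CPM in Ctrl + Morphine mice. It was 35.7, 35.8, 48.2, 36.1 and 35.8 CPM in Kdm7a-shRNA + Saline mice and 44.4, 28.2, 45.8 and 33.8 CPM in Kdm7a-shRNA + Morphine mice. The 2 saline groups did not overlap, as for 23.7% of the tested genes, and 8 of 9 hairpin mice lay above all Ctrl mice. The share of tested genes with such a partial separation was not computed. Cux1 rose under saline by 0.68 on the log2 scale (SE 0.171, adjusted p = 0.0105). Without Ctrl + Saline replicate 3 the value was 0.59 with an adjusted p of 0.0717. Under morphine the difference was 0.54 ± 0.16 (SE; adjusted p = 0.0417) and stayed under 1.5-fold. Averaged over treatments Cux1 rose by 0.61 (SE 0.117, adjusted p = 9.75e-04). The averaged fold change dropped under 1.5-fold in 5 of the 16 fits with 1 mouse left out, those without Kdm7a-shRNA + Morphine replicates 1 (0.57) and 3 (0.56), Ctrl + Morphine replicate 4 (0.58), Kdm7a-shRNA + Saline replicate 3 (0.57) and Ctrl + Saline replicate 3 (0.57). The adjusted p was at most 0.00504 in these fits.

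**Figure D1:**
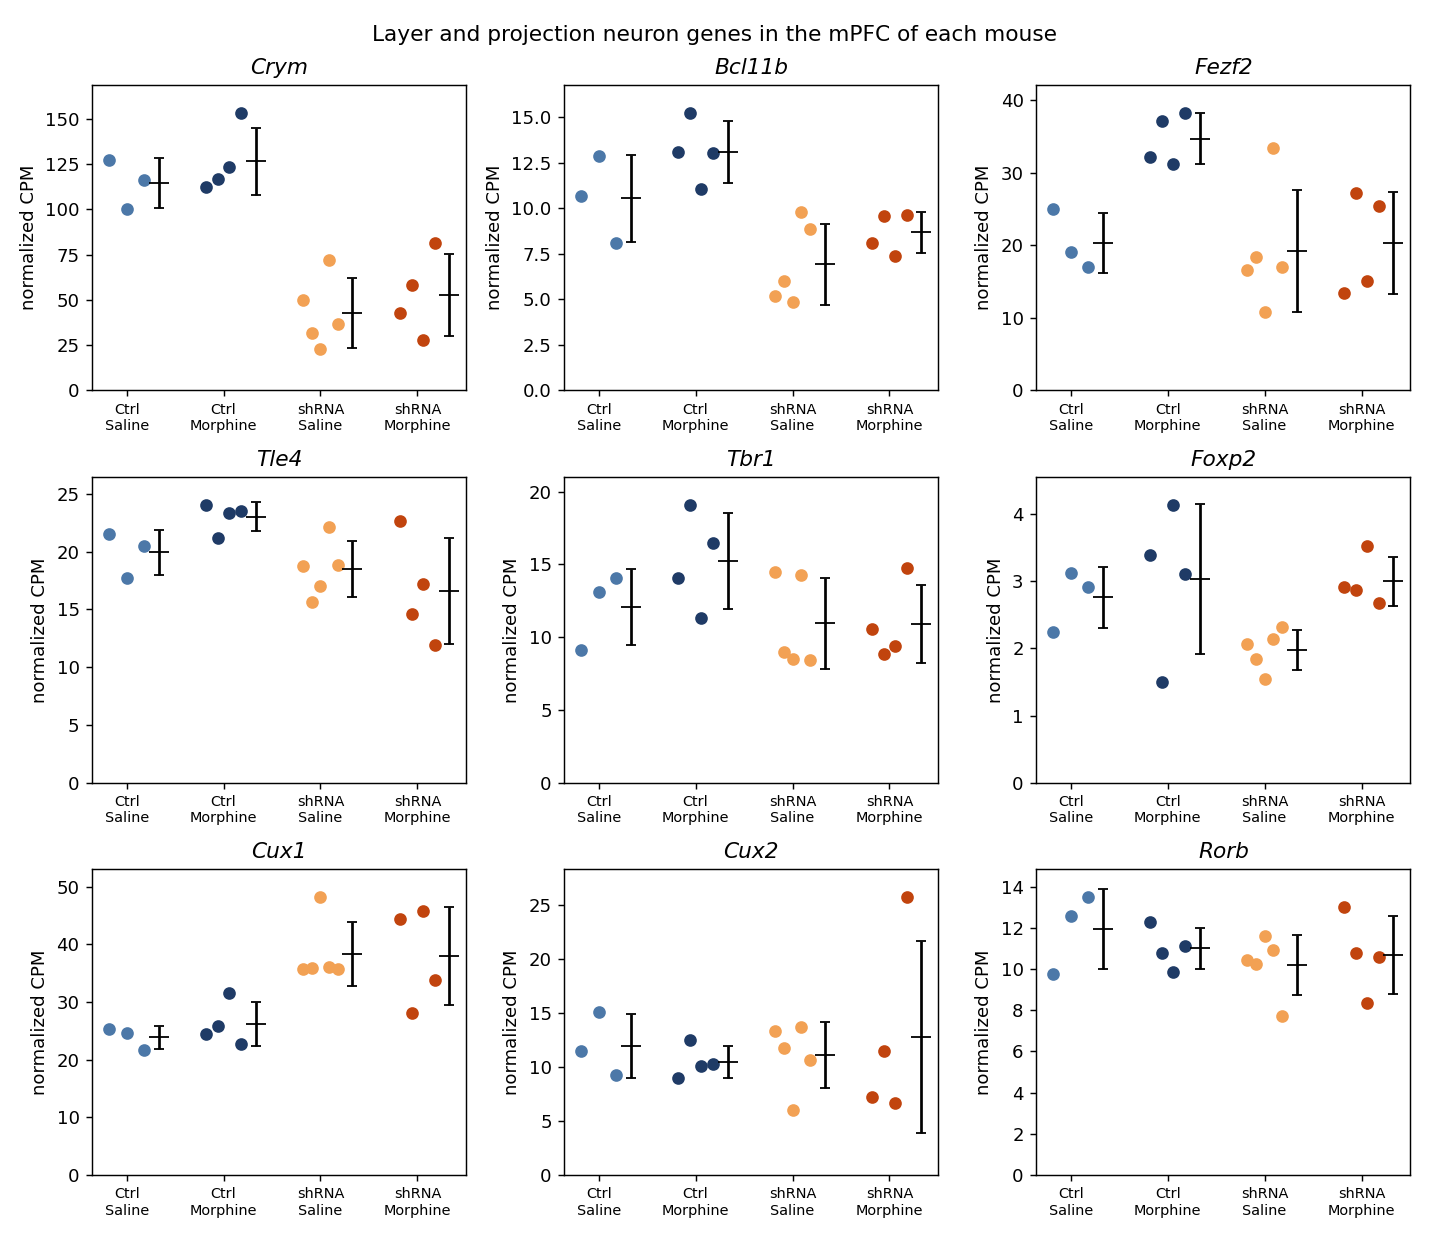
Normalized CPM (y axis, from 0) of the 9 genes, 1 point per mouse in the 4 groups on the x axis, with the group mean and SD as a bar beside the points. The 9 hairpin mice sit between 22.8 and 81.2 CPM for Crym, under every Ctrl mouse, and the 4 Ctrl + Morphine mice lie between 31.2 and 38.3 CPM for Fezf2.

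Cux2, the paralog of Cux1 in the upper layers, passed no comparison. It was 11.5, 15.1 and 9.27 CPM in Ctrl + Saline mice, 8.99, 12.5, 10.1 and 10.3 CPM in Ctrl + Morphine mice and 13.3, 11.8, 6.04, 13.7 and 10.7 CPM in Kdm7a-shRNA + Saline mice. In Kdm7a-shRNA + Morphine mice it was 7.20, 11.5, 6.70 and 25.8 CPM. The last mouse held the highest level of all 16, and the range of its group covered all but 1 of the other mice. Its log2 fold change was -0.11 ± 0.35 under saline (SE; adjusted p = 0.851) and 0.28 ± 0.34 under morphine (SE; adjusted p = 0.655). The latter turned to -0.31 without that mouse. The averaged 95% interval of -0.44 to 0.60 includes changes past 1.5-fold upwards. Rorb stayed between 7.74 and 13.5 CPM in the 16 mice, with group means of 11.96 ± 1.94, 11.01 ± 1.00, 10.2 ± 1.47 and 10.7 ± 1.92 CPM (SD) in the order given above. Its averaged difference was -0.14 on the log2 scale, with a 95% interval of -0.40 to 0.11.

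Among the layer 6 genes, Tle4, a corepressor, was 21.5, 17.8 and 20.5 CPM in Ctrl + Saline mice and 24.1, 21.2, 23.4 and 23.5 CPM in Ctrl + Morphine mice. It was 18.7, 15.7, 17.1, 22.2 and 18.9 CPM in Kdm7a-shRNA + Saline mice and 22.7, 14.6, 17.2 and 11.9 CPM in Kdm7a-shRNA + Morphine mice. In both pairs the groups overlapped. Under morphine the log2 difference was -0.48 ± 0.17 (SE; adjusted p = 0.0775), and under saline it was -0.11 ± 0.17 (SE; adjusted p = 0.701). Tbr1, a T-box factor, ranged from 8.44 to 19.1 CPM, with a log2 difference of -0.49 ± 0.23 under morphine (SE; adjusted p = 0.193) and -0.15 ± 0.24 under saline (SE; adjusted p = 0.710). The 2 genes therefore had negative values of like size under morphine, and neither passed.

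Foxp2, a forkhead factor, was the least covered of the 9 genes, with 13 to 41 counts per mouse. It was 2.25, 3.12 and 2.91 CPM in Ctrl + Saline mice, 3.39, 1.49, 4.14 and 3.10 CPM in Ctrl + Morphine mice, 2.07, 1.84, 1.54, 2.14 and 2.31 CPM in Kdm7a-shRNA + Saline mice and 2.91, 2.88, 3.52 and 2.68 CPM in Kdm7a-shRNA + Morphine mice. Every Kdm7a-shRNA + Saline mouse lay below every Kdm7a-shRNA + Morphine mouse, which was so for 1.94% of the tested genes in 1 direction or the other. The log2 difference was 0.60 ± 0.26 (SE; adjusted p = 0.703) and did not pass.

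Over the 9 genes the counts of calls were small and are read against those of all tested genes. For morphine under the control virus 0 of the 9 passed, as did 0 of the tested genes (0%). At an unadjusted p under 0.05 edgeR gave 1 of the 9 (Fezf2) and 2205 of all (11.7%), and the median of the 9 was 0.14. The 0 over all genes depended on the fit, as 190 genes passed in DESeq2 and 230 without Ctrl + Saline replicate 1. In either case 0 of the 9 passed. For Kdm7a-shRNA under morphine 1 of the 9 passed (Crym) beside 7.69% of all genes, of which 4.83% were lower and 2.86% higher. The median of the 9 was -0.48, beside 0.00 over all tested genes. Under saline 2 of the 9 passed (Cux1 and Crym) beside 16.7% of all genes, of which 9.31% were lower and 7.43% higher, and the median was -0.15. For morphine under the hairpin 0 of the 9 passed beside 0.00531% of all genes, that is 1 gene, with 1 of the 9 (Foxp2) at an unadjusted p under 0.05 in edgeR. For the difference of the morphine effect between the viruses 0 of the 9 passed beside 0.085% of all genes, and 0 of the 9 had an unadjusted p under 0.05 in edgeR. Averaged over treatments 3 of the 9 passed beside 17.6% of all genes, of which 9.93% were lower and 7.68% higher, with a median of -0.29. The shares of the 9 under the hairpin rest on 1 to 3 genes. The comparisons share mice, so their counts are not separate observations.

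**Figure D2:**
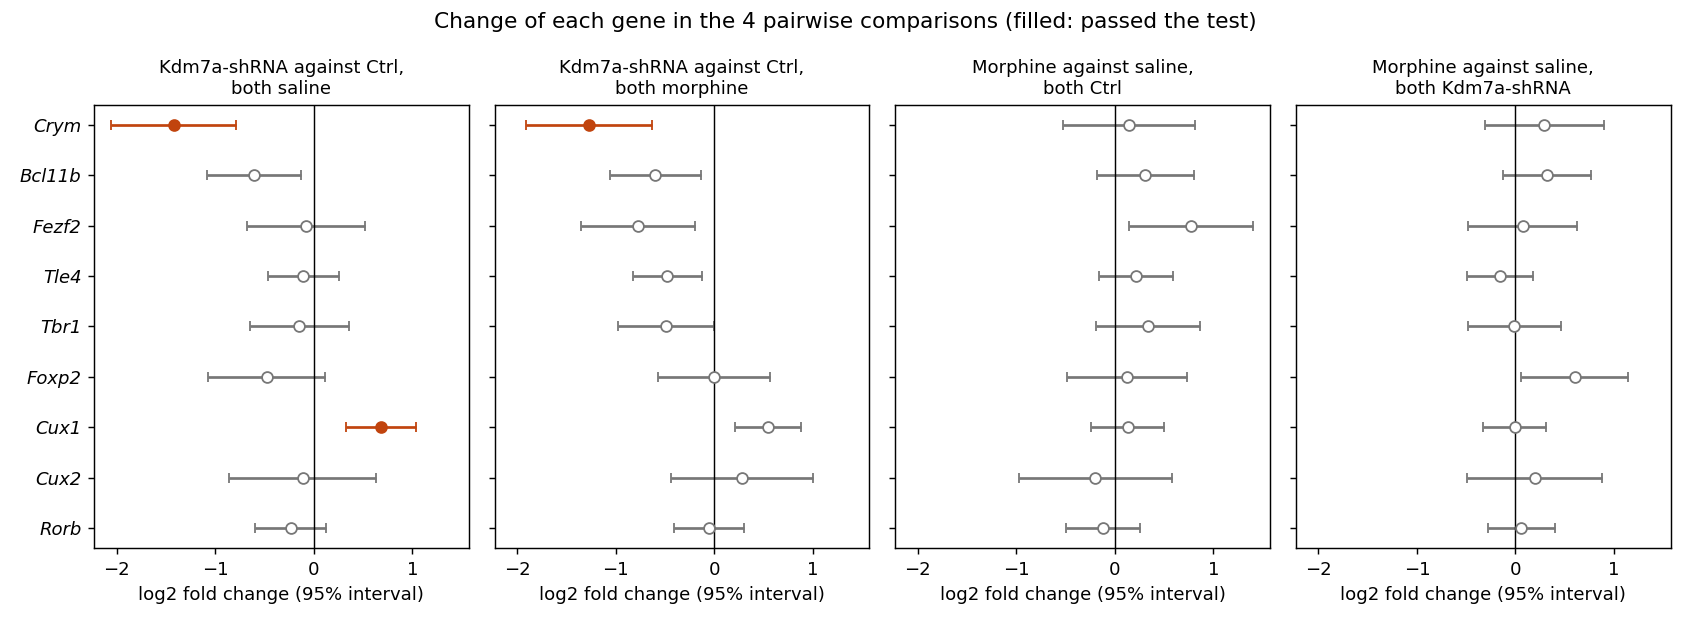
Log2 fold change (x axis) of the 9 genes (y axis) in 4 pairwise comparisons, with 95% intervals as bars and filled points where the gene passed. The filled points are Crym at -1.42 and Cux1 at 0.68 under saline, and Crym at -1.27 under morphine.

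Promoter sequence was available for 7 of the 9 genes in a RefSeq table of GRCm38.p6. The windows of Bcl11b and Cux1 are shown because these 2 transcription factor genes passed the averaged test in opposite directions. Each holds 300 bases, 250 before and 50 after an annotated start, written 5′ to 3′ on the strand of the gene, and the capitals mark CG dinucleotides. The windows are chr12:108003365-108003664 and chr5:136565932-136566231, both on the minus strand.
Bcl11b: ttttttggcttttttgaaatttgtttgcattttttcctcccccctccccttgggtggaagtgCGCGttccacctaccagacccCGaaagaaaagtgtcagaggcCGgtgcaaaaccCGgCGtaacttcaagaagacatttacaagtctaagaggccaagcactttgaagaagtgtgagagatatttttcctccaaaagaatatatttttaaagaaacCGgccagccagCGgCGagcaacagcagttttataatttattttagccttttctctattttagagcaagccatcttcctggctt
Cux1: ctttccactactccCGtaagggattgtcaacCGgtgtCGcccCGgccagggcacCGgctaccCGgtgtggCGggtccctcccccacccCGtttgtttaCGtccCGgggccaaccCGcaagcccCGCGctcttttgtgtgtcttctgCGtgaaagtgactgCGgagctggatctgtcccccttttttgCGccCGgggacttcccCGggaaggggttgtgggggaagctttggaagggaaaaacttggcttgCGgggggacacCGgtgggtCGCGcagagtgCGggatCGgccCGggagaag
The Bcl11b window held 9 CG dinucleotides and the Cux1 window 25. Of 32851 promoter windows of this length 45.8% held at least 9 and 18.4% held at least 25. The richest windows were 1 of Cux2 with 48, a count that 1.22% of all windows reached, and those of Tle4 with 44 (2.25%) and 28 (14.2%). The other Cux2 window held 4, the Rorb windows 20 and 5, the Fezf2 window 20 and the Tbr1 window 7, which is the median of all windows. These counts describe the windows, and no binding or methylation was measured. Within the GENCODE annotation of GRCm38 the antisense gene Gm16599 overlaps Cux1, and Gm3970 and Gm15637 overlap Cux2. On the same strand A430110C17Rik, Mir721 and Gm38082 overlap Cux1, and Gm25470 overlaps Foxp2. None of these overlapping genes has a row of its own among the deposited counts. Crym, Bcl11b, Fezf2, Tbr1, Tle4 and Rorb overlapped no other annotated gene.

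To place the 9 genes among others of the same neuron classes, 36 further layer genes were followed, of which 34 were tested. Under the hairpin 1 passed under morphine (2.94%), 2 under saline (5.88%) and 2 in the averaged comparison (5.88%), all lower, against the 7.69%, 16.7% and 17.6% of all tested genes given above. Lamp5, a membrane protein of upper-layer and some inhibitory neurons, fell under saline by 0.91 on the log2 scale (SE 0.263, adjusted p = 0.0225) and in the average by 0.63 (SE 0.185, adjusted p = 0.0172). Its range was 133 to 143 CPM in Ctrl + Saline mice and 52.8 to 89.8 CPM in Kdm7a-shRNA + Saline mice. The morphine groups overlapped, with 111 to 135 CPM in Ctrl and 38.1 to 138 CPM in Kdm7a-shRNA mice, and Lamp5 did not pass there. Mef2c, an activity-regulated transcription factor, fell under saline by 0.88 (SE 0.221, adjusted p = 0.0110). Plxnd1, a semaphorin receptor with 14 to 58 counts per mouse, fell in the average by 0.62 (SE 0.222, adjusted p = 0.0443). Nfib, a transcription factor shared by deep-layer neurons and glia, fell under morphine by 0.65 (SE 0.144, adjusted p = 0.0117). In the averaged comparison the 12 upper-layer genes had a median of -0.38, the 10 tested layer 5 genes of -0.04 and the 12 layer 6 genes of -0.08. The layer 5 list held no gene that passed in any comparison. For morphine 0 of the 34 passed under either virus, beside 0% and 0.00531% of all tested genes. In the same order the list medians were -0.14, -0.08 and 0.37 for morphine under the control virus. For the hairpin under morphine they were -0.33, -0.12 and -0.30. The summed layer 6 level was 224 to 283 CPM in Ctrl + Saline and 302 to 342 CPM in Ctrl + Morphine mice. It was 234 to 297 CPM in Kdm7a-shRNA + Saline and 251 to 295 CPM in Kdm7a-shRNA + Morphine mice. These sums were not tested.

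The markers of other cell types also differed with the hairpin. Of 6 microglia markers 5 were higher in the averaged comparison, among them C1qa, a complement component (1.51 ± 0.31 on the log2 scale, SE; adjusted p = 0.00157). Their summed level was 558 to 832 CPM in Ctrl + Saline mice, 390 to 710 in Ctrl + Morphine, 1109 to 3041 in Kdm7a-shRNA + Saline and 709 to 2862 in Kdm7a-shRNA + Morphine. Of 6 astrocyte markers 3 were higher, of 5 endothelial markers 2, of 4 oligodendrocyte precursor markers 1 and of 6 oligodendrocyte markers 0. Of 8 markers shared by excitatory neurons, Nrgn was higher (0.79 ± 0.26, SE; adjusted p = 0.0306) and Bhlhe22 lower (-1.05 ± 0.34, SE; adjusted p = 0.0298), and of 8 interneuron markers 4 were lower and 2 higher. Bhlhe22 was thinly covered, with 2 to 24 counts per mouse. Of 12 striatal markers 9 were tested and of 4 olfactory bulb markers 3, and none passed in any comparison. Their summed levels reached 80.3 to 191 and 2.29 to 7.38 CPM over the 16 mice. Most of the striatal sum came from Ppp1r1b, Pde10a and Rgs9, with medians over the mice of 71.8, 20.4 and 14.3 CPM. Drd2 had a median of 0.97 CPM and Six3 of 0.11 CPM. The striatal sum was 88.1 to 111 CPM in Ctrl + Saline mice and 139 to 169 CPM in Ctrl + Morphine mice, without overlap. Of single tested genes 12.4% separated these 2 groups, and the sum was not tested. It was 80.3 to 191 CPM in Kdm7a-shRNA + Saline mice and 93.5 to 133 CPM in Kdm7a-shRNA + Morphine mice. The part of these cell types in the results for Crym, Cux1, Bcl11b and Fezf2 was not tested.

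**Figure D3:**
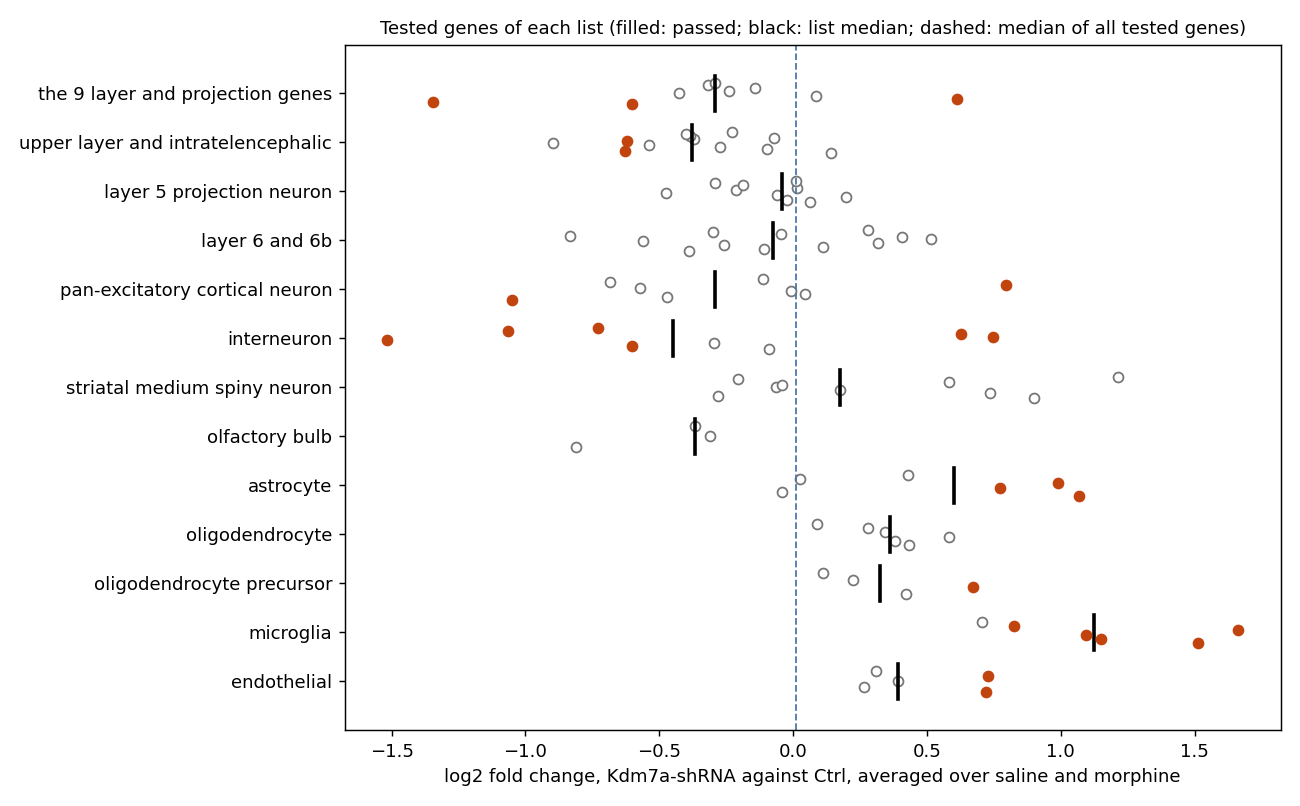
Log2 fold change for Kdm7a-shRNA against Ctrl averaged over treatments (x axis) of each tested gene by list (y axis), filled where it passed, with the median of the list as a black bar and that of all tested genes, 0.01, as a dashed line. The median is -0.29 for the 9 genes and 1.12 for the microglia markers.

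Some of the 9 genes varied together among mice of the same group. After each group mean was subtracted on the log2 scale, 8 of the 36 pairs among the 9 genes had a Pearson r over 0.5 across the 16 mice and 4 pairs had one under -0.5. The share of all pairs of tested genes past these limits was not computed. The counts are therefore not read as particular to the 9 genes. The 8 pairs lay among Fezf2, Bcl11b, Tbr1, Cux2 and Crym. Fezf2 and Crym had r = 0.825 (Spearman rho 0.679), Cux2 and Crym 0.760 (0.576), and Fezf2 and Bcl11b 0.708 (0.721). Cux1 ran the other way, with r = -0.650 against Fezf2 and -0.622 against Crym. The r values were also taken without the 2 mice farthest from the median of the first-named gene. They were then 0.656 for Fezf2 and Crym, 0.597 for Cux2 and Crym and 0.456 for Fezf2 and Bcl11b. For Fezf2 and Cux1 r was -0.665, and for Cux1 and Crym -0.357. The values differed between the viruses. Within the 9 hairpin mice r was 0.851 for Fezf2 and Crym, 0.852 for Cux2 and Crym and 0.771 for Fezf2 and Bcl11b, and within the 7 Ctrl mice it was 0.537, -0.307 and 0.4996. For Cux1, r was -0.783 with Fezf2 and -0.698 with Crym in the hairpin mice, and -0.017 and -0.273 in the Ctrl mice. These values describe the same libraries and share their scaling and depth.

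The summed microglia level also varied with several of these genes. Its r was -0.820 with Cux2, -0.807 with Crym, -0.705 with Tbr1, -0.660 with Fezf2, -0.528 with Bcl11b, -0.344 with Rorb, 0.211 with Tle4, 0.293 with Foxp2 and 0.501 with Cux1, again over 16 mice after removal of group means. Without the 2 mice farthest from the median of each layer gene, r was -0.773 with Cux2, -0.688 with Crym and -0.609 with Tbr1. It was then -0.499 with Fezf2, -0.317 with Bcl11b, 0.101 with Rorb, 0.017 with Tle4, 0.099 with Foxp2 and 0.172 with Cux1. Within the 9 hairpin mice alone r was -0.951 with Crym and 0.647 with Cux1, whereas within the 7 Ctrl mice it was 0.416 and -0.087. For Cux2 it was -0.816 and -0.876, and for Fezf2 -0.730 and -0.188. The summed oligodendrocyte level had r = -0.785 with Tbr1 and -0.629 with Crym over the 16 mice, and the summed interneuron level 0.720 with Crym. Without the 2 farthest mice these were -0.676, -0.410 and 0.511. Kdm7a-shRNA + Saline replicate 3, with the highest microglia sum, held the lowest Crym, Fezf2, Bcl11b and Cux2 and the highest Cux1 of all 16 mice. Kdm7a-shRNA + Morphine replicate 4, with the lowest sum of the hairpin mice (709 CPM, within the range of the Ctrl mice), held the highest Crym of them (81.2 CPM), still below the lowest Ctrl mouse (100.2 CPM). Without the former mouse the averaged log2 fold change of Cux1 was 0.57 and that of Bcl11b -0.55, both under 1.5-fold, while Crym passed.

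**Figure D4:**
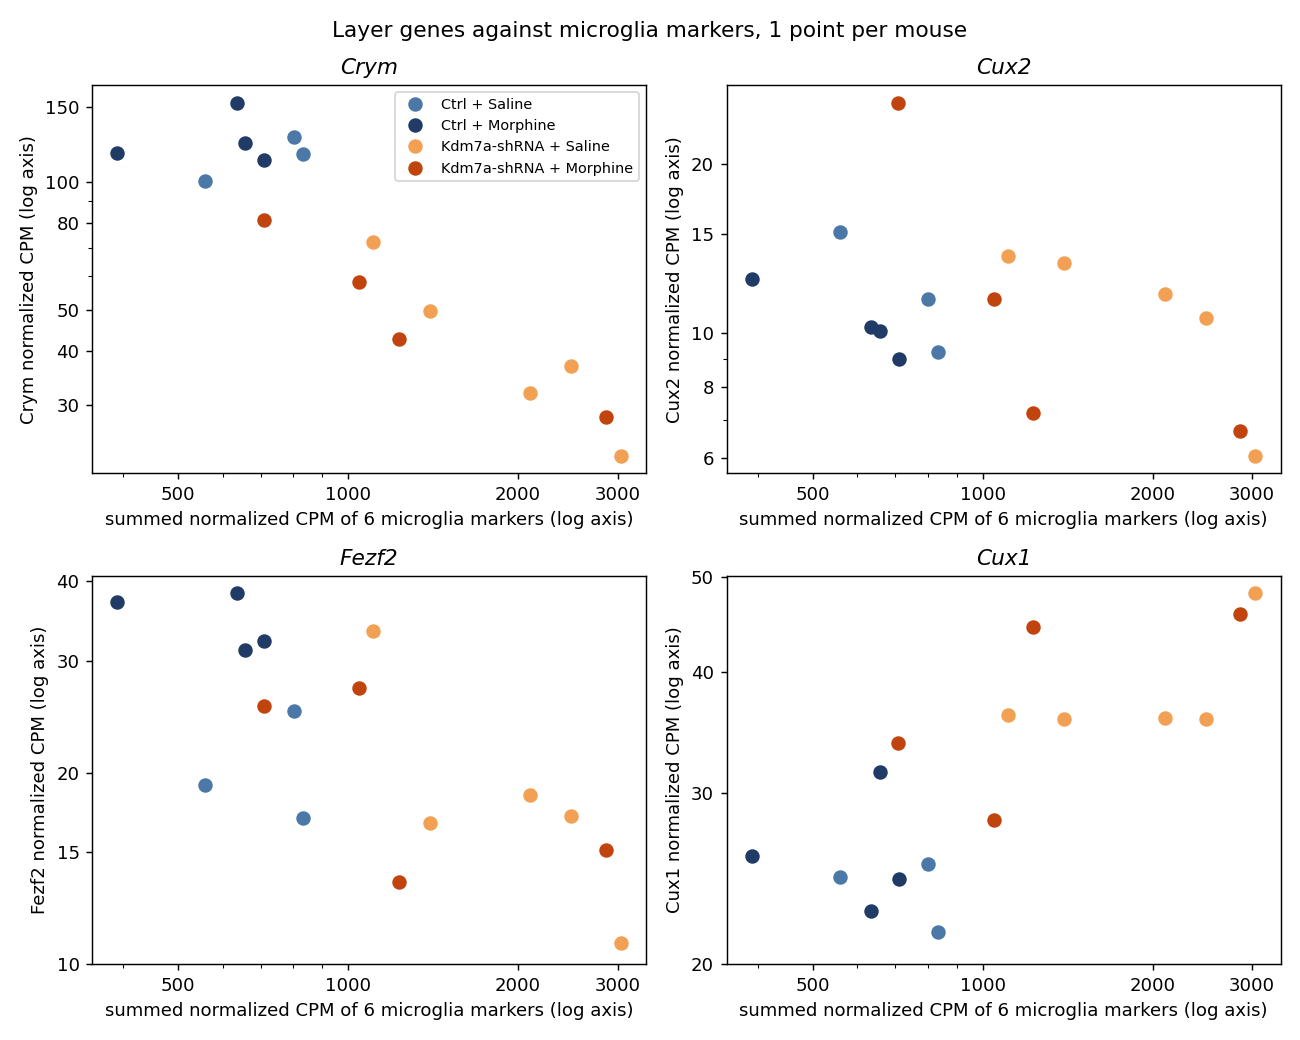
Normalized CPM of Crym, Cux2, Fezf2 and Cux1 (y axes, log) against the summed normalized CPM of 6 microglia markers (x axes, log), 1 point per mouse, coloured by group. Among the 9 hairpin mice Crym runs from 81.2 CPM at the lowest sum, 709 CPM, to 22.8 CPM at the highest, 3041 CPM.

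Among the annotated tested genes, 3 had levels most like that of Crym over the 16 mice, without removal of group means. They were Ndufb4, a subunit of mitochondrial complex I (r = 0.980), Grp, the gastrin-releasing peptide (0.967), and Timm10, a mitochondrial import chaperone (0.966). After removal of group means these were 0.958, 0.874 and 0.946. For Bcl11b they were Cdh13, a cadherin (0.897), Ahcy, which hydrolyses S-adenosylhomocysteine (0.883), and Htr1a, a serotonin receptor (0.870). With group means removed, r was 0.861, 0.739 and 0.875. For Cux1 they were Sord, sorbitol dehydrogenase (0.920), L3hypdh (0.905) and Rpl4, a ribosomal protein (0.905), and with group means removed 0.723, 0.694 and 0.736. All were picked as the highest r among the annotated tested genes and are given as a description. Htr1a and L3hypdh had at most 37 and 21 counts in a mouse.

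**Figure D5:**
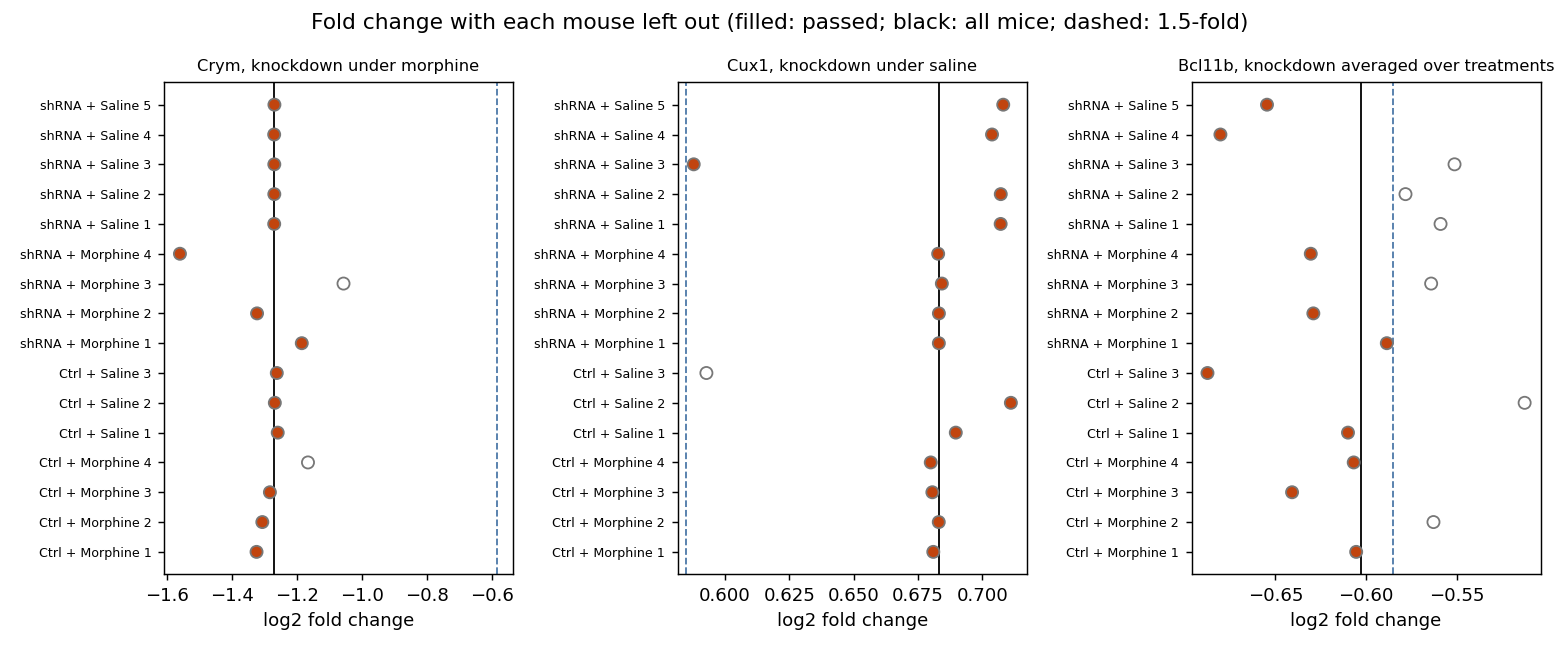
Log2 fold change (x axes) of Crym under morphine, Cux1 under saline and Bcl11b averaged over treatments with the mouse named on the y axis left out, filled where the gene passed, beside the value with all mice (black line) and 1.5-fold (dashed line). Of 16 fits each, 14 passed for Crym, 15 for Cux1 and 10 for Bcl11b.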

How the data were processed

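RNA from the mPFC of 16 mice was read as full-length cDNA on a Nanopore PromethION. Per the study's methods the authors kept reads of passing quality and length, removed ribosomal RNA and aligned full-length reads with minimap2; the submitters' processing notes name mm10 and edgeR 3.8.6. The authors deposited a table of gene counts, used here, and the CPM made from them, which entered no result. The annotation release and the use of strand in counting are not given in the sources used here. Groups came from the sample labels. In R 4.3.3 the deposited counts were filtered (filterByExpr), scaled (TMM) and fitted in 1 model of the 4 groups with edgeR 4.0.16 (glmQLFit, glmQLFTest; limma 3.58.1), on 18826 genes with Benjamini-Hochberg adjustment. Normalized CPM were recomputed from the counts. Intervals are 95%. Libraries held 6596991 to 12418112 counts, so a gene at 20 CPM had over 100 counts. The fit was checked on simulated counts. Alternatives were other scalings and filters, DESeq2 1.42.0, a replicate block and leaving out each mouse. The genes described and the companion lists were chosen with earlier results of these data known. Named companions are those that passed a comparison, up to 6 a list by adjusted p; some are not reported here. Replicates were separate mice, and no 2 libraries of a group agreed within sampling noise.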

Additional observations from a re-analysis of the deposited data

Results flagged for a closer look

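Cux1 in Kdm7a-shRNA + Saline replicate 3 stood apart from its group. Its level was 48.2 CPM, whereas the other 4 mice lay between 35.7 and 36.1 CPM. The gap to the nearest mouse was 0.970 of the range of the group. Of 27 combinations of a gene with a group of at least 4 mice tested in this way, 1 was marked. Chance marks about 1 in 20 such tests, and these tests shared mice. Kdm7a-shRNA + Saline replicate 3 also held the highest sum of microglia markers, 3041 CPM. The part of that sum in the Cux1 level was not tested.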

How the results depend on the processing

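The alternatives left most values in place. Of 412 values recomputed with all mice, 393 kept their direction and their side of the threshold. For Kdm7a-shRNA under morphine, 2 of the 9 genes passed on the adjusted p alone (Cux1 and Crym), and 3 with a replicate block (Fezf2, Bcl11b and Crym), where 1456 rather than 1448 of all genes passed. Whether the replicate numbers pair the mice was not settled. Same-numbered mice of different groups had correlations of -0.102 to 0.395 after removal of group means, and 6 of 21 pairs were over 0.1. Of the 16 mice, 8 correlated best with a mouse of their own number. With 1 mouse left out the count under morphine ran from 0 to 2. It was 0 without Kdm7a-shRNA + Morphine replicate 3 and without Ctrl + Morphine replicate 4. Tle4, Fezf2 and Cux1 passed there beside Crym in 1, 1 and 3 of these fits. Under saline it ran from 1 to 3, with 1 without Ctrl + Saline replicate 3 and 3, with Bcl11b, without Kdm7a-shRNA + Saline replicate 4 or 5, and in the average from 1 to 3, with 1 (Crym) without Kdm7a-shRNA + Morphine replicate 3 or Kdm7a-shRNA + Saline replicate 3. The cause was not tested. By library size alone the median of all genes shifted by -0.11 under morphine, -0.13 under saline and -0.12 in the average, and Cux1 was then under 1.5-fold (0.55 under saline, 0.49 in the average); the average was also under it with at least 10 counts in every mouse (0.58) and with annotated genes only (0.55). Crym passed under each alternative with all mice in the 3 hairpin comparisons, and Bcl11b in the average.

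Some values turned in sign, none of them past the threshold. With a replicate block Crym gave -0.053 for morphine under the control virus, Rorb -0.029 for morphine under the hairpin, Cux2 -0.083 in the average and Foxp2 0.012 for the hairpin under morphine. Foxp2 there also gave 0.0099 with RLE size factors, 0.0038 with no filter and 0.014 with DESeq2. By library size alone morphine under the hairpin gave 0.018 for Tbr1 and 0.023 for Cux1, and Cux2 gave -0.028 in the average. With 1 mouse left out the log2 fold changes that changed sign ranged as follows. For morphine under the control virus they ran from -0.37 to 0.013 for Cux2 and -0.056 to 0.35 for Foxp2. For the hairpin under morphine they ran from -0.31 to 0.51 for Cux2, -0.16 to 0.056 for Rorb and -0.23 to 0.17 for Foxp2. For the hairpin under saline they ran from -0.37 to 0.073 for Fezf2 and -0.29 to 0.10 for Cux2. For morphine under the hairpin they ran from -0.10 to 0.37 for Fezf2, -0.19 to 0.11 for Tbr1, -0.11 to 0.11 for Cux1, -0.39 to 0.42 for Cux2 and -0.044 to 0.17 for Rorb. For the difference of the morphine effects they ran from -0.17 to 0.20 for Bcl11b, -0.19 to 0.62 for Cux2 and -0.14 to 0.42 for Crym, and in the average from -0.21 to 0.20 for Cux2. Depth limits Foxp2 most, with 13 to 41 counts per mouse.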
